A study of Mus musculus with 24 samples.

Results

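The 39 Hox genes of the mouse were followed in whole lung at 5 postnatal ages. They were taken as every gene whose RefSeq symbol is Hoxa, Hoxb, Hoxc or Hoxd followed by digits. All 39 were among the 19722 named genes of the array, 11 in the Hoxa cluster (chromosome 6), 10 in Hoxb (chromosome 11), 9 in Hoxc (chromosome 15) and 9 in Hoxd (chromosome 2). Total RNA from untreated C57BL/6 lungs was hybridised to 24 one-colour Agilent arrays, 5 each at postnatal days 1, 4, 7 and 14 and 4 at day 42, which the labels give as 6 weeks. The samples are labelled as biological replicates of healthy wild-type mice with no transgene. Whether each came from 1 animal is not stated, so p-values measure the spread between these samples. The question was how lung gene expression changes with postnatal age.

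Hox genes encode homeodomain transcription factors that set position along the body axis. In each cluster the genes are numbered from the 3′ end, where they are switched on early and reach far forward in the embryo, to the 5′ end, where they act in the trunk, limbs and urogenital tract. In the lung, Hox genes near the middle of the clusters are transcribed mainly in mesenchyme, and Hoxa5, Hoxb5 and Hoxc5 (the Hox5 paralogs) act in airway branching and later in alveolar and elastic fibre formation. Hox proteins bind DNA with partners of the Pbx, Meis and Pknox families, Polycomb and trithorax complexes hold the clusters silent or active, and retinoic acid and Cdx factors help to switch them on.

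Levels are given as log2 of the processed signal minus the 75th percentile of the same array, so that 0 is the brightness of the spot at that percentile. Each gene is read by 1 probe, and levels of different probes are not compared. A probe is called above background where the scan software marked it as well above background. The arrays' 75th percentiles lay between 476.1 and 1653 intensity units, and 50.45% to 79.7% of spots were above background. Day 14 replicate 3 held the highest share and the other 23 arrays stopped at 64.58%. A set of 5 arrays (day 1 replicates 4 and 5, day 4 replicates 1 and 3, day 42 replicate 4) stood apart on the first principal component, which held 49.93% of the variance, and had the lowest 75th percentiles, 476.1 to 979.3. Day 14 replicate 5 lay nearer than any other day 14 array to the day 7 arrays on the first 2 components, with a mean cycling-cell marker level of -0.35 against -2.53 to -2.23 on the other 4. Results that rest on these arrays are given with and without them. Of the lung's own markers, all 8 epithelial ones, among them the surfactant gene Sftpc and the lung regulator Nkx2-1, were above background on every array. Day 1 replicate 2 had a mean cardiac muscle marker level of 6.93, against 1.16 to 2.88 on the other day 1 arrays.

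The Hox genes above background on all 24 arrays, by the probe used for each, came from the 3′ and middle parts of the Hoxa and Hoxb clusters. Of 39 genes, 13 were above background on all 24 arrays, all of them in the Hoxa and Hoxb clusters, with Hoxa2 to Hoxa7 and Hoxb2 to Hoxb7 among them. Of the 8 genes numbered 1 to 3, 5 were above background on all 24 arrays, and of the 15 numbered 4 to 8, 8 were. None of the 16 genes numbered 9 to 13 was by the probe used, but a second Hoxa9 probe was above background on all 24 arrays. Across all 19722 genes the share above background on all 24 arrays was 66.95%, against 33.33% of the Hox genes. In Hoxc and Hoxd no gene reached all 24 arrays. The nearest were Hoxc4, at 22 arrays, and Hoxd8, also at 22.

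**Figure D1:**
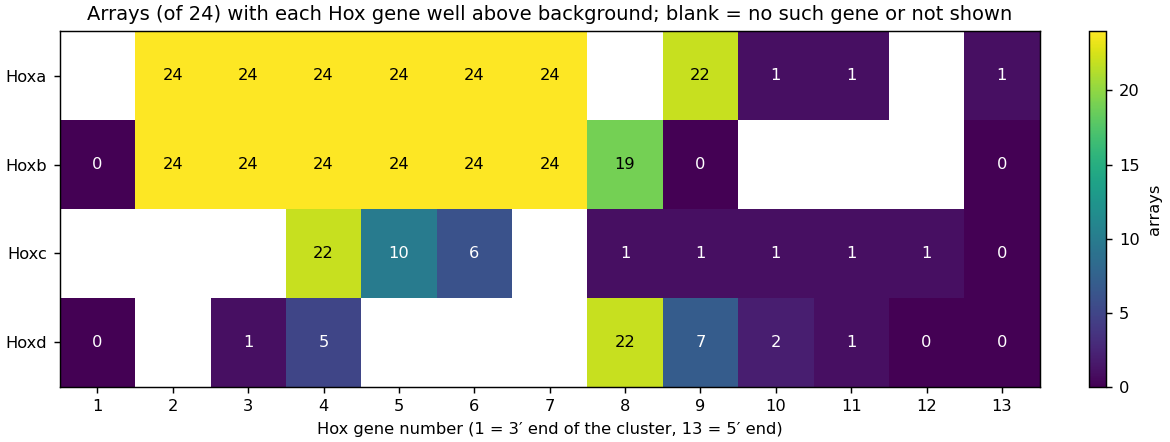
Each cell gives the number of arrays, of 24, on which the probe used for a Hox gene was well above background. Clusters are in rows and gene numbers run along the axis from the 3′ to the 5′ end. Hoxa2 to Hoxa7 and Hoxb2 to Hoxb7 stood at 24, while all genes numbered 10 to 13 stood at 2 or fewer.

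The 3′-most genes were not uniform. Hoxb2 and Hoxb3 were above background on 24 arrays, while Hoxb1, an early hindbrain gene in the embryo, and Hoxd1 were above background on 0. Among the genes numbered 9, Hoxa9 was above background on 22 arrays and Hoxd9 on 7, 4 of them at day 1. Hoxc9 was above background on 1 array and Hoxb9 on 0. Besides Hoxb1, Hoxb9 and Hoxd1, the genes above background on no array were Hoxb13, Hoxc13, Hoxd12 and Hoxd13. Their level is not well above background here, which does not show that they are silent in every lung cell.

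Most of the 5′ genes, numbered 9 to 13, that were ever above background were so on a single array alone. Day 14 replicate 3, which had the highest share of spots above background, had 32 Hox genes above it, against 16 to 20 on each of the other 23 arrays. Of the genes numbered 9 to 13, 11 were above background on that array and 0 to 2 on any other. The 10 Hox genes above background on that array alone were Hoxa10, Hoxa11, Hoxa13, Hoxc8, Hoxc9, Hoxc10, Hoxc11, Hoxc12, Hoxd3 and Hoxd11. Another 1 of the 5′ genes, Hoxd10, was above background on 2 arrays. Over all genes, 1024 were above background on that array alone. It also stood apart in markers of some other tissues. The 5 thymocyte markers, all above background there, had a mean level of -0.32, against -3.08 to -2.60 on the other day 14 arrays, and the 5 neural markers one of -1.84, against -3.62 to -3.30. Its cardiac muscle (4.81) and mesothelial (2.54) levels were the highest of its age. Its kidney (-4.89) and skeletal muscle (-1.72) marker levels lay within the range of the other day 14 arrays. The part of these tissues in the detection of Hox genes was not tested. Without it, 22 of 39 Hox genes were above background on any array, 19 of the 23 numbered 1 to 8 and 3 of the 16 numbered 9 to 13 (Hoxa9, Hoxd9 and Hoxd10).

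**Figure D2:**
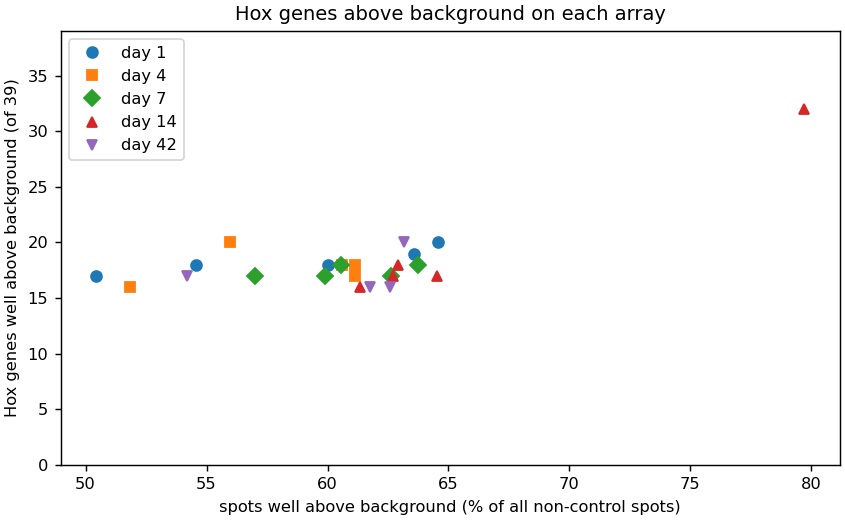
Each point is 1 array, with the share of its spots above background on the horizontal axis, the number of Hox genes above background on the vertical axis, and the marker showing the age. Day 14 replicate 3 stands alone at 79.7% of spots and 32 Hox genes, while the others hold 16 to 20.

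Sequence upstream of the start was looked at for the members that RefSeq's promoter table (GRCm38.p6) holds, which were 22 of the 39 genes with 24 promoters. The 250 bases before the start held a median of 12.5 CpG dinucleotides in the Hox promoters, against 6 in all 32851 promoters. Within the Hox set the median was 10 for the genes tested below and 16.5 for those that were not. The Hox-Pbx composite motif TGATNNAT was searched on both strands and matched 4 of 24 Hox promoters (16.67%) and 7.68% of all. The nuclear receptor half-site AGGTCA, which retinoic acid receptors can bind, matched 6 (25.0%) and 14.02% of all. The homeodomain core TAATTA matched 2 (8.33%) and 4.84% of all. Each motif was counted by itself, whether or not it overlapped another. A match is a description of the letters and no evidence of binding.

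Upstream sequences are shown for Hoxa2 and Hoxb8, the genes with the largest difference from day 1 to day 42 in their clusters, and for Hoxa5, the Hox gene best known in lung development. Capitals mark the match to TGATNNAT. The Hoxa2 window (GRCm38.p6 chr6:52164832-52165081, minus strand) and the Hoxa5 window (chr6:52204588-52204837, minus strand) are the 250 bases before the start. Of Hoxb8 only the 30 bases before the annotated start are shown (chr11:96281875-96281904, plus strand), because longer predicted gene models cover this stretch.
Hoxa2: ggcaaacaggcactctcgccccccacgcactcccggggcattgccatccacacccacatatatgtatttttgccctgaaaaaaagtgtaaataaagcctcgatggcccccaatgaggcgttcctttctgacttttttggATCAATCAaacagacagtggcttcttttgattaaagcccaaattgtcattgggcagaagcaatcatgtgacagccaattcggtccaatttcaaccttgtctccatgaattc
Hoxb8: ctttatcaataataaggaaATTGATCAtta
Hoxa5: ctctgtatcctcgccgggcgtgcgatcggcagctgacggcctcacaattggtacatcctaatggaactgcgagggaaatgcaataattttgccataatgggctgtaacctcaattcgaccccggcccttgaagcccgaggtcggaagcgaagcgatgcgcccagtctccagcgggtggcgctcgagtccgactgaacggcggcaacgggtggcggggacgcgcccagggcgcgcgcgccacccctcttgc
The match reads ATCAATCA in Hoxa2 and ATTGATCA in Hoxb8, and the Hoxa5 window holds none. Neither of the other motifs matched in the 250 bases before any of these starts. The Hoxa5 window held 28 CpG dinucleotides and that of Hoxa2 6.

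Differences between ages were tested with limma on 15895 genes that were above background on at least 4 arrays, with Benjamini-Hochberg adjustment over all of them and a threshold of 0.05. Of the 39 Hox genes, 21 entered, 8 of Hoxa, 7 of Hoxb, 3 of Hoxc and 3 of Hoxd. They were 5 of the 8 genes numbered 1 to 3, 14 of the 15 numbered 4 to 8 and 2 of the 16 numbered 9 to 13. The other 18 had too few values above background to be tested. Over the 5 ages together, 10 Hox genes passed the F-test, where 31.4% of all genes did. Every Hox gene that passed the test in a comparison of 2 ages was lower at the later age, and 9 genes did so between day 1 and day 42. Because whole lungs were measured, fewer Hox-expressing cells and less Hox RNA per cell cannot be told apart.

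During the first week no Hox gene passed limma's test. From day 1 to day 4, 0 of 21 passed (0.0566% of all genes did), with 3 at an unadjusted p under 0.05, among them Hoxa5, which was higher, and Hoxd9, which was lower. From day 4 to day 7, 0 passed (0.00629% of all genes), with 0 at an unadjusted p under 0.05. The median Hox difference was 0.15 from day 1 to day 4, where that of all genes was 0.0086, and -0.29 from day 4 to day 7, where that of all genes was -0.27. Without the 5 arrays apart these medians were 0.28 and -0.07, against 0.04 and -0.06 over all genes, and 0 Hox genes passed in either step (0.0755% and 0.0503% of all genes). In simulated data of the same size, 2-fold changes were recovered in 47% of genes from day 1 to day 4 and in 41% from day 4 to day 7. The simulated arrays had independent noise and did not shift together as the 5 arrays apart did.

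The largest number of changes between neighbouring ages fell between day 7 and day 14. Of 21 Hox genes, 6 were lower at day 14 and passed the test (5.3% of all genes were lower and passed), and 0 were higher (6% of all genes). The 6 were Hoxb2, Hoxb3, Hoxb7 and Hoxb8 of the Hoxb cluster and Hoxa2 and Hoxa3 of Hoxa. All 7 Hoxb genes tested had lower means at day 14, with a median log2 difference of -1.16, while the median was -0.24 for the 8 Hoxa genes and 0.03 over all genes. In 6 of the 7 Hoxb genes, all but Hoxb4, no day 14 array reached the day 7 range, as in 7.52% of all genes. Of the 3 Hoxc and 3 Hoxd genes, 0 passed limma's test and 0 reached an unadjusted p under 0.05. All 6 genes that passed differed in the same direction within each of the 3 slides. They were picked on these same arrays, and some ages have a single array on a slide, so this adds no separate support. The share over all genes was not counted.

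**Figure D3:**
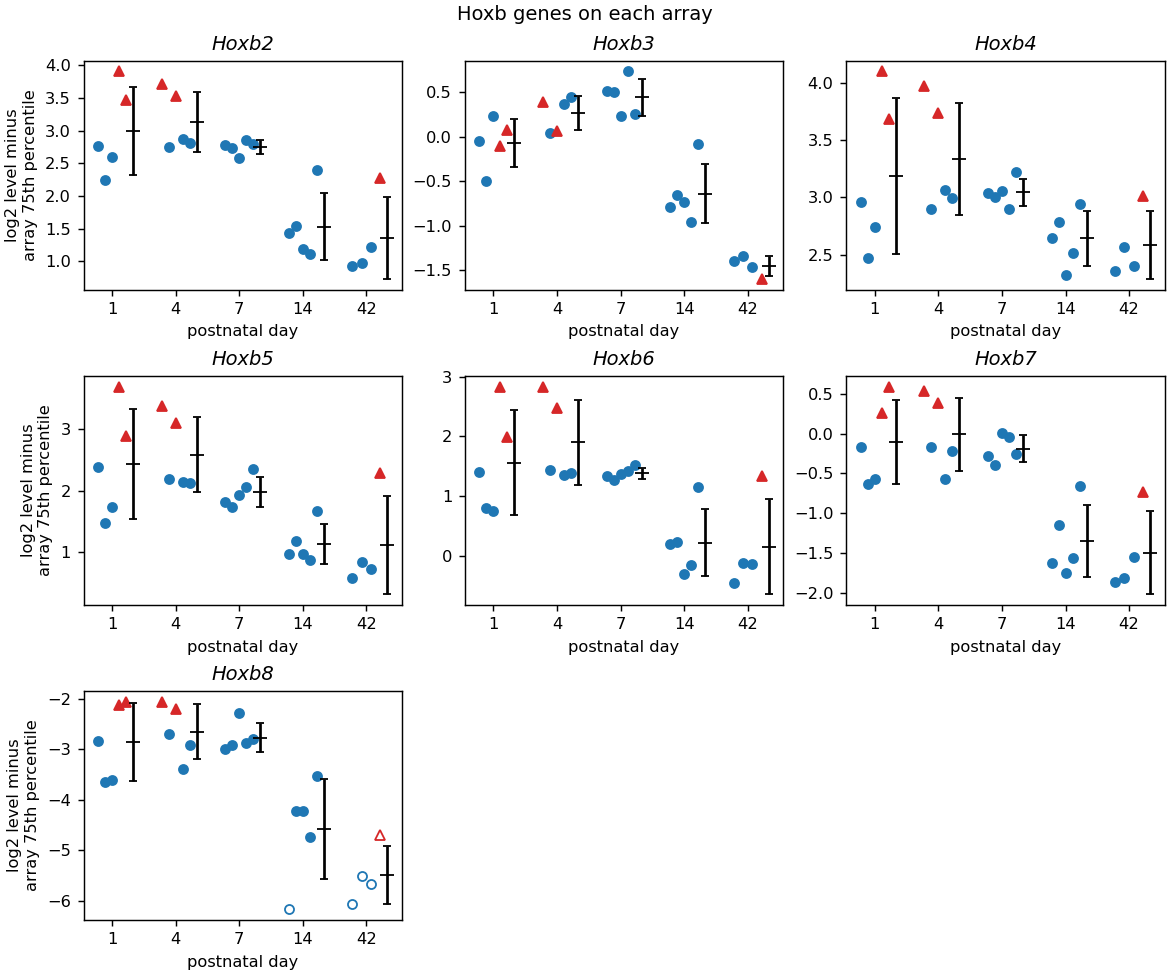
Log2 level relative to the array's 75th percentile (vertical) by postnatal day (horizontal) for the 7 Hoxb genes tested; each point is 1 array, triangles are the 5 arrays that stood apart, open symbols were not well above background, and bars are mean ± SD. In 6 genes, all but Hoxb4, every day 14 point lies below every day 7 point, and Hoxb8 is open on all 4 day 42 arrays.

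Hoxb2, a hindbrain patterning gene in the embryo, had levels of 2.76, 2.25, 2.59, 3.90 and 3.47 at day 1 and 3.72, 2.74, 3.53, 2.86 and 2.82 at day 4. Levels were 2.78, 2.73, 2.58, 2.86 and 2.80 at day 7 and 1.43, 1.54, 1.19, 1.11 and 2.39 at day 14. At day 42 they were 0.94, 0.98, 1.22 and 2.28. The 5 day 7 arrays lay close together, all day 14 arrays were below them, and day 42 replicate 4 and day 14 replicate 5 were the highest of their ages. The day 14 minus day 7 log2 difference was -1.22 (SE 0.31, 95% CI -1.87 to -0.57, adjusted p = 0.0116). The day 42 minus day 1 difference was -1.64 (SE 0.33, 95% CI -2.33 to -0.95, adjusted p = 0.00063), a 3.12-fold lower level, with an overlap made by day 42 replicate 4.

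Hoxb3, which acts in hindbrain, thyroid and thymus formation, had levels of -0.05, -0.50, 0.23, -0.10 and 0.07 at day 1 and 0.39, 0.05, 0.07, 0.37 and 0.45 at day 4. Levels were 0.51, 0.50, 0.23, 0.74 and 0.25 at day 7 and -0.79, -0.65, -0.73, -0.96 and -0.08 at day 14. At day 42 they were -1.40, -1.34, -1.46 and -1.60. The 3 oldest ages formed separate steps with no overlap between neighbours (3.54% of all genes were lower at day 42 than at day 14 without overlap), and the 5 arrays apart did not stand out as they did for other Hoxb genes. The log2 difference was -1.09 (SE 0.17, 95% CI -1.44 to -0.74, adjusted p = 0.000164) from day 7 to day 14 and -0.81 (SE 0.18, 95% CI -1.18 to -0.43, adjusted p = 0.0122) from day 14 to day 42. The day 42 minus day 1 difference was -1.38 (SE 0.18, 95% CI -1.76 to -1.01, adjusted p = 3.8e-06).

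A second Hoxb3 probe, above background on all 24 arrays, gave smaller later steps. In a fit of every probe, its log2 difference was -0.64 from day 7 to day 14 (adjusted p = 0.236, limma) and -0.10 from day 14 to day 42 (adjusted p = 0.889). From day 1 to day 42 it was -1.25 (adjusted p = 0.00682). Both probes were thus lower at day 42 than at day 1, and only the brighter probe placed separate steps at day 14 and day 42.

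Hoxb4, known for its part in blood stem cells, had levels of 2.96, 2.47, 2.74, 4.10 and 3.68 at day 1 and 3.98, 2.90, 3.74, 3.06 and 3.00 at day 4. Levels were 3.04, 3.00, 3.05, 2.90 and 3.23 at day 7, 2.65, 2.78, 2.32, 2.52 and 2.94 at day 14 and 2.36, 2.57, 2.40 and 3.01 at day 42. Ages overlapped throughout, and the arrays apart were the highest at days 1, 4 and 42. The difference from day 7 to day 14 was -0.40 (SE 0.26, 95% CI -0.95 to 0.15, adjusted p = 0.432) and that from day 1 to day 42 was -0.61 (SE 0.28, 95% CI -1.19 to -0.02, adjusted p = 0.125).

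Hoxb6 had levels of 1.41, 0.79, 0.75, 2.83 and 1.99 at day 1 and 2.83, 1.44, 2.48, 1.35 and 1.38 at day 4. Levels were 1.33, 1.26, 1.37, 1.42 and 1.51 at day 7 and 0.19, 0.23, -0.31, -0.16 and 1.14 at day 14. At day 42 they were -0.45, -0.13, -0.14 and 1.33. The day 7 and day 14 groups did not overlap, yet the day 14 minus day 7 difference of -1.16 (SE 0.40, 95% CI -1.99 to -0.33, adjusted p = 0.0656) did not pass. The day 42 minus day 1 difference was -1.40 (SE 0.42, 95% CI -2.28 to -0.53, adjusted p = 0.0158). It ran the other way on slide 3 (0.57), the slide that holds day 42 replicate 4, and Hoxb5 did the same (0.55). The Hoxb6 call was lost without day 42 replicate 1, 2 or 3 (adjusted p = 0.0665, 0.0509 and 0.0504) and in a fit of days 1 and 42 alone (0.112).

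Hoxb7 had levels of -0.16, -0.63, -0.57, 0.25 and 0.59 at day 1 and 0.54, -0.17, 0.39, -0.57 and -0.22 at day 4. Levels were -0.28, -0.39, 0.01, -0.04 and -0.26 at day 7 and -1.63, -1.14, -1.75, -1.56 and -0.66 at day 14. At day 42 they were -1.87, -1.82, -1.56 and -0.74. Levels through day 7 lay between -0.63 and 0.59, and all arrays of days 14 and 42 were below that range. The log2 difference was -1.16 (SE 0.28, 95% CI -1.73 to -0.59, adjusted p = 0.00644) from day 7 to day 14 and -1.39 (SE 0.29, 95% CI -2.00 to -0.79, adjusted p = 0.000905) from day 1 to day 42.

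Hoxb8, at the 5′ edge of the Hoxb genes seen in lung, showed the largest difference from day 1 to day 42 of the Hox genes tested. It was above background on all 15 arrays of days 1, 4 and 7, on 4 of 5 at day 14 and on 0 of 4 at day 42. Its levels were -2.83, -3.65, -3.61, -2.12 and -2.07 at day 1, -2.05, -2.69, -2.20, -3.38 and -2.92 at day 4 and -2.99, -2.91, -2.27, -2.87 and -2.79 at day 7. They were -6.17, -4.21, -4.22, -4.73 and -3.52 at day 14, where replicate 1 was not above background, and -6.07, -5.51, -5.67 and -4.70 at day 42. The day 14 group lay wholly below the day 7 group, with a log2 difference of -1.81 (SE 0.41, 95% CI -2.66 to -0.96, adjusted p = 0.00449). Against day 42, where the probe has only a bound, Hoxb8 was at least 5.60-fold higher at day 1, 6.45-fold at day 4, 5.95-fold at day 7 and 1.70-fold at day 14. These bounds set the mean of the brighter age against the lowest signal above background at day 42, or the probe's own signal where that was higher. They hold no sampling error, and the day 42 minus day 14 comparison did not pass (adjusted p = 0.344, limma). The fitted day 42 minus day 1 comparison had an adjusted p of 6.7e-05 (limma), on measured means of -2.85 at day 1 and -5.49 at day 42. Its 95% CI ran from -3.54 to -1.73 on the log2 scale, which includes differences smaller than the bound. With normexp background correction the day 14 minus day 7 difference was -0.75 and did not pass (adjusted p = 0.107).

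Hoxa2, a gene of hindbrain and neural crest patterning, had levels of -0.02, -0.44, -0.17, 0.28 and 0.35 at day 1 and 0.55, 0.15, 0.24, 0.09 and 0.04 at day 4. Levels were -0.03, 0.13, -0.33, 0.44 and 0.10 at day 7 and -0.66, -0.78, -0.65, -1.0 and -0.21 at day 14. At day 42 they were -1.24, -1.45, -1.42 and -0.78. Day 14 overlapped day 7 only through replicate 5, and every day 42 array lay below every array of days 1, 4 and 7. The log2 difference was -0.72 (SE 0.19, 95% CI -1.11 to -0.32, adjusted p = 0.0147) from day 7 to day 14. Without day 7 replicate 4 that comparison had an adjusted p of 0.053, and without day 14 replicate 4 one of 0.054. Over the whole period the difference was -1.22 (SE 0.20, 95% CI -1.64 to -0.80, adjusted p = 7.3e-05), a 2.33-fold lower level.

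Hoxa3, which is needed for the thymus and parathyroid, had levels of 2.45, 2.11, 2.56, 2.57 and 2.79 at day 1 and 3.02, 2.61, 2.79, 2.82 and 2.84 at day 4. Levels were 3.05, 3.07, 2.62, 2.86 and 2.66 at day 7 and 2.12, 2.27, 1.68, 2.11 and 2.67 at day 14. At day 42 they were 1.53, 1.68, 1.62 and 1.81. The day 42 arrays lay below all arrays of days 1, 4 and 7. The log2 difference was -0.68 (SE 0.17, 95% CI -1.03 to -0.33, adjusted p = 0.00867) from day 7 to day 14 and -0.84 (SE 0.18, 95% CI -1.21 to -0.47, adjusted p = 0.00102) from day 1 to day 42.

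The Hox5 paralogs are given 1 by 1, and no test compared their courses. Hoxa5 levels were 1.77, 1.27, 1.36, 1.97 and 1.94 at day 1, 2.42, 1.78, 2.30, 1.83 and 1.87 at day 4 and 1.65, 1.98, 1.80, 2.05 and 1.89 at day 7. They were 1.59, 1.72, 1.91, 1.46 and 1.75 at day 14 and 0.88, 1.01, 0.89 and 1.26 at day 42. Levels overlapped among the first 4 ages, and every day 42 array was below every other array of the series. The log2 difference was -0.19 (SE 0.17, 95% CI -0.54 to 0.16, adjusted p = 0.638) from day 7 to day 14, -0.68 (SE 0.18, 95% CI -1.05 to -0.30, adjusted p = 0.036) from day 14 to day 42 and -0.65 (SE 0.18, 95% CI -1.02 to -0.28, adjusted p = 0.00876) from day 1 to day 42. The step from day 14 to day 42 lost its call when any of 7 single arrays was left out, with adjusted p from 0.054 to 0.105, and under median scaling (adjusted p = 0.41). The day 42 minus day 1 call was lost in a fit of those ages alone (adjusted p = 0.132).

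Hoxb5 levels were 2.38, 1.49, 1.74, 3.70 and 2.89 at day 1 and 3.39, 2.20, 3.11, 2.14 and 2.12 at day 4. They were 1.82, 1.74, 1.94, 2.07 and 2.35 at day 7, 0.98, 1.19, 0.98, 0.87 and 1.68 at day 14 and 0.59, 0.85, 0.73 and 2.30 at day 42. All day 14 arrays were below all day 7 arrays, and day 42 replicate 4 lay more than 1 log2 unit above the other 3 of its age. The difference was -0.84 (SE 0.37, 95% CI -1.62 to -0.07, adjusted p = 0.172) from day 7 to day 14, which did not pass, and -0.02 (SE 0.40, 95% CI -0.85 to 0.80, adjusted p = 0.979) from day 14 to day 42. Its day 42 minus day 1 difference was -1.32 (SE 0.40, 95% CI -2.15 to -0.50, adjusted p = 0.0152). That call was lost without day 42 replicate 1 (adjusted p = 0.0621) or 3 (0.0549) and in a fit of days 1 and 42 alone (0.14). None of the 5 arrays apart is of day 7 or day 14, so leaving them out cannot move the difference between these ages, but its SE was then 0.17 (adjusted p = 0.00112, limma).

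Hoxc5 was dimmer and was above background on 10 arrays, 0 at day 1, 2 at day 4, 1 at day 7, 4 at day 14 and 3 at day 42. Its measured levels were -5.81, -5.83, -5.90, -4.47 and -4.82 at day 1 and -4.11, -5.42, -4.85, -5.46 and -4.87 at day 4. They were -5.37, -4.73, -5.40, -5.83 and -4.80 at day 7, -5.20, -4.12, -3.98, -5.44 and -6.18 at day 14 and -4.00, -4.77, -5.54 and -3.99 at day 42. All ages overlapped. Against day 1, where no array measured it above background, the bound at day 42 was at least 1.5-fold, with 3 of 4 arrays above background, and the comparison did not pass (adjusted p = 0.206, limma).

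**Figure D4:**
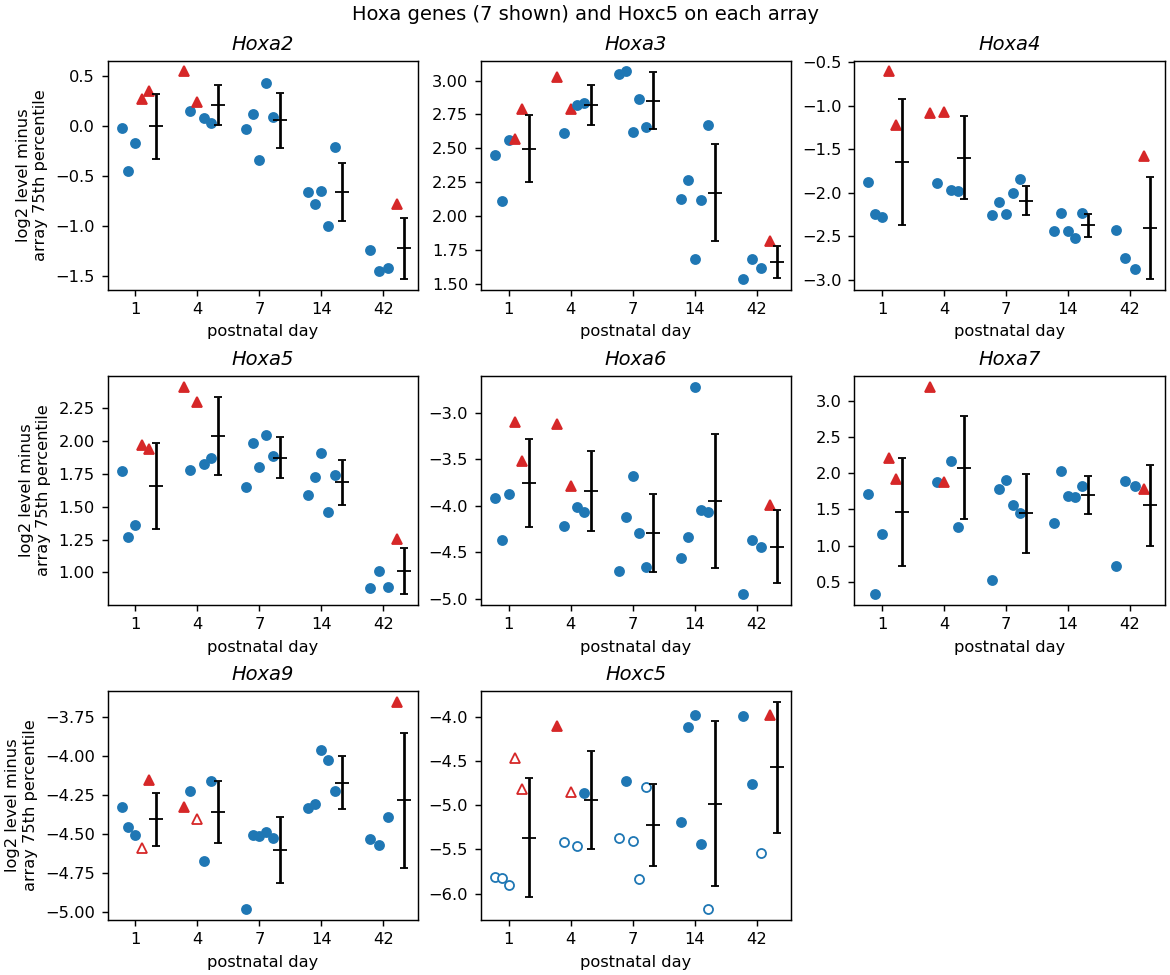
Log2 level relative to the array's 75th percentile (vertical) by postnatal day (horizontal) for 7 Hoxa genes tested and Hoxc5; each point is 1 array, triangles are the 5 arrays that stood apart, open symbols were not well above background, and bars are mean ± SD. Hoxa2, Hoxa3 and Hoxa5 are lowest at day 42, while Hoxa7 and Hoxa9 overlap between day 1 and day 42.

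Between day 14 and day 42, 2 Hox genes were lower and passed, Hoxa5 and Hoxb3 (1.45% of all genes were lower and passed). None was higher past the threshold (2.2% of all genes), with 7 at an unadjusted p under 0.05, 5 lower and 2 higher. The higher ones were Hoxc4, with a log2 difference of 1.74 (SE 0.61, adjusted p = 0.131), and Hoxc6, with 1.72 (SE 0.66, adjusted p = 0.184). Hoxc6 was above background on 1 array at each of these ages, and without day 42 replicate 1, the one at that age, its difference was 0.99 (adjusted p = 0.492). That of Hoxc4 was 1.23 without the same array (adjusted p = 0.386) and 2.32 without day 14 replicate 3 (adjusted p = 0.014, limma), which then passed. The count of 2 depends on scaling: with each array scaled to its median, the median of all genes shifted from 0.086 to 0.305. Then 0 Hox genes passed (3.11% of all genes).

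Over the whole period, 9 Hox genes were lower at day 42 than at day 1 and passed (13.4% of all genes were lower and passed). They were Hoxa2, Hoxa3, Hoxa5, Hoxb2, Hoxb3, Hoxb5, Hoxb6, Hoxb7 and Hoxb8, that is 3 of 8 Hoxa genes and 6 of 7 Hoxb genes. None was higher past limma's threshold (12.9% of all genes), and 0 were higher at an unadjusted p under 0.05. The median log2 difference was -1.39 for Hoxb and -0.67 for Hoxa, against -0.76 over the 21 Hox genes and -0.05 over all genes. The groups did not overlap for 6 genes, Hoxa2, Hoxa3, Hoxa5, Hoxb3, Hoxb7 and Hoxb8 (7.6% of all genes were lower without overlap). Of the 9 genes, 7 differed in the same direction within all 3 slides, which again reuses the arrays that picked them and adds no separate support. Hoxb5, Hoxb6 and Hoxa5 fell short in a fit of these 2 ages alone, which left 6 genes. The share of all genes that passed in that fit was not counted. Without day 1 replicate 2, the array with the high cardiac markers, 11 genes passed (26.5% of all genes in either direction).

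**Figure D5:**
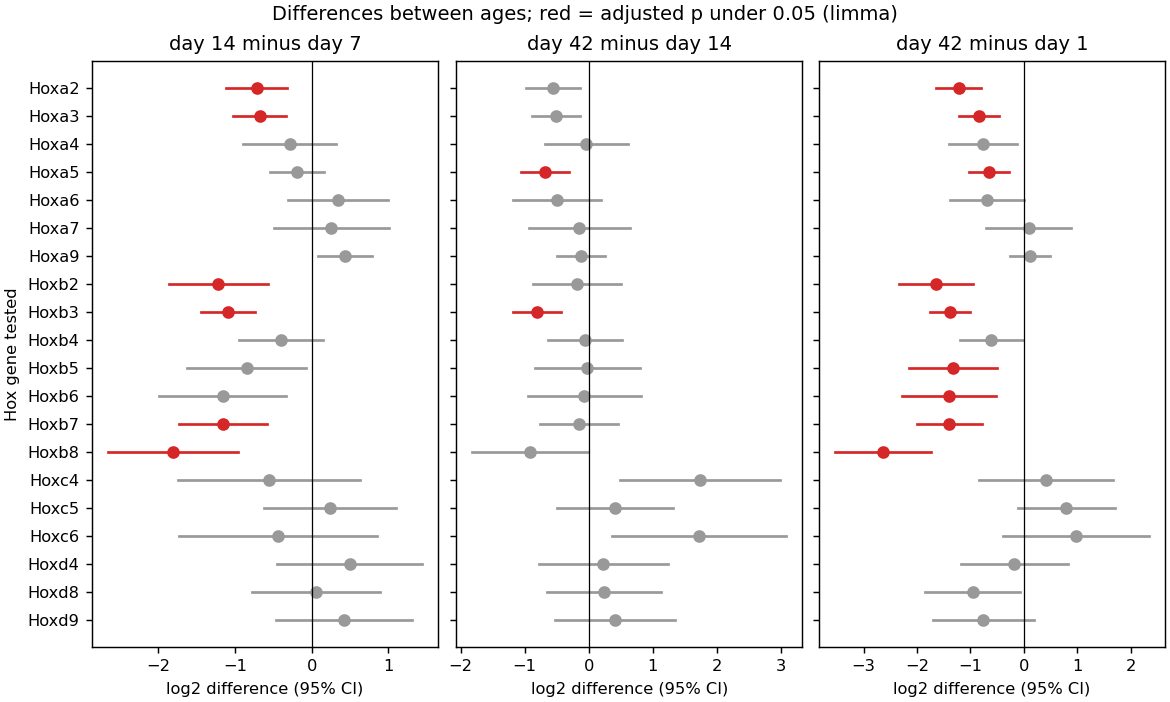
Points are log2 differences of the later minus the earlier age for 20 of the Hox genes tested, with 95% confidence intervals from limma; red marks an adjusted p under 0.05, and each panel has its own horizontal scale. The red points, 6 from day 7 to day 14, 2 from day 14 to day 42 and 9 from day 1 to day 42, all lie below 0.

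The 5 arrays apart were higher than all other arrays of the same age, at all 3 ages concerned, for 13 of the 21 Hox genes tested (61.9%) and for 51% of all genes tested. Hoxb5 was higher on them by 1.42 at day 1, 1.09 at day 4 and 1.58 at day 42, and Hoxb6 by 1.43, 1.27 and 1.57. Hoxb3, Hoxa3, Hoxa7 and Hoxa9 were among those that did not follow. The smooth muscle marker list (4 of 4 genes above background) had mean levels of 5.41 to 6.33 on the 4 arrays of days 1 and 4 and 4.75 on day 42 replicate 4, against medians of 4.71, 4.50 and 3.51 at these ages. The 8 epithelial markers had mean levels of 5.59 to 6.33 on the 5 arrays and 4.49 to 5.45 on the others of these ages, and the 5 endothelial markers 4.21 to 4.92 and 3.37 to 3.98. The 7 fibroblast markers had 4.28 to 4.76 on the 5 arrays and 4.16 to 5.14 on the others of these ages. The 6 cycling-cell markers were lower on the 5 arrays. At day 1 they had 0.97 and 1.19 against 1.46 to 1.93, and at day 4 0.40 and 0.66 against 0.79 to 1.09. At day 42 they had -2.72 against -2.04 to -1.46. The part of these markers in the result was not tested.

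Without these 5 arrays more genes passed from day 7 to day 14, at the same differences, since none of the 5 is of those ages. Then 10 Hox genes were lower and passed (17.2% of all genes, against 5.3% with all arrays), the 6 above with Hoxb4, Hoxb5 and Hoxb6 among those added. Hoxa9 was higher and passed (20.8% of all genes), with a log2 difference of 0.43 (SE 0.12, adjusted p = 0.00879, limma). From day 14 to day 42, 4 passed, all lower (6.39% of all genes), with Hoxa2 and Hoxa3 added. From day 1 to day 42, 10 passed, all lower (23.6% of all genes), with Hoxa4 added (-0.55, SE 0.14, adjusted p = 0.00423). The median of all 21 Hox differences from day 1 to day 42 was then -0.54.

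The remaining tested Hox genes did not pass in any comparison of 2 ages over all 24 arrays. Hoxa4 had a day 42 minus day 1 difference of -0.76 (SE 0.31, 95% CI -1.41 to -0.12, adjusted p = 0.0761). Hoxa6 differed by -0.69 over the same period (adjusted p = 0.141) and Hoxd8 by -0.95 (adjusted p = 0.112). Hoxa7 differed by 0.09 (95% CI -0.70 to 0.88, adjusted p = 0.885), an interval that holds changes of either sign.

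Hoxa9, the only gene numbered above 8 with values on most arrays, had means of -4.40 ± 0.17 at day 1 (SD, n = 5), -4.60 ± 0.21 at day 7 (SD, n = 5) and -4.28 ± 0.43 at day 42 (SD, n = 4). Its day 14 arrays lay above its day 7 arrays, as those of 8.76% of all genes did, with a difference of 0.43 (SE 0.17, 95% CI 0.08 to 0.79, adjusted p = 0.118). A second probe, above background on 24 arrays, differed by 0.25 in that step (adjusted p = 0.819). Hoxd9, above background on 4 of 5 arrays at day 1 and 0 of 5 at day 7, was at least 1.65-fold higher at day 1, a pair of ages that was not tested. Hoxd4 was above background on 3 arrays at day 1, 0 at days 4 and 7 and 1 each at days 14 and 42. Its day 42 minus day 1 difference was -0.18 (adjusted p = 0.821).

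Among the proteins that bind DNA with Hox factors, 3 of 9 tested genes were lower at day 42 than at day 1 and 0 were higher, where 13.4% of all genes were lower and 26.3% passed in either direction. They were Meis3 (-0.93, adjusted p = 0.0185), Pbx3 (-0.81, adjusted p = 9.0e-05) and Pknox1 (-0.67, adjusted p = 0.0203). The median of the 9 was -0.67, against -0.05 over all genes. From day 7 to day 14 Pbx3 was the 1 of the 9 that passed (11.3% of all genes passed in either direction), with a difference of -0.45 (adjusted p = 0.0239, limma).

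Of 20 Polycomb and trithorax genes tested, 2 were higher and 4 lower at day 42 than at day 1 (26.3% of all genes passed in either direction). The Polycomb methyltransferase Ezh2 was lower (-1.77, adjusted p = 0.000666) and its paralog Ezh1 higher (0.98, adjusted p = 0.00465). Of the chromodomain subunits, Cbx2 was lower (-1.67, adjusted p = 0.00097) and Cbx7 higher (2.65, adjusted p = 8.4e-07). Ezh2 and Cbx7 also passed from day 7 to day 14, with differences of -1.20 and 1.58. The 6 cycling-cell markers, with a median level of 1.46 at day 1 and -2.00 at day 42, moved with Ezh2, and their part in the result was not tested.

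From the list of retinoid and Cdx inputs 14 genes were tested, Gdf11 among them and no Cdx gene. Of these, 2 were higher and 3 lower from day 1 to day 42, which is 35.7% beside 26.3% of all genes. The retinaldehyde dehydrogenase Aldh1a1 was higher (2.02, adjusted p = 2.8e-06), as was Cyp26b1, which degrades retinoic acid (1.33, adjusted p = 0.0234). The ligand Gdf11, which patterns the trunk axis, was lower (-1.70, adjusted p = 0.00335). Aldh1a1 (1.76) and Cyp26b1 (1.57) were also the 2 genes of the list that passed from day 7 to day 14. Cdx1 and Cdx4 were above background on 0 arrays and Cdx2 on 1.

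Genes tied to the Hox5 paralogs in lung, 8 of 9 tested, were lower in 5 cases and higher in 0 from day 1 to day 42 (13.4% of all genes were lower). They included elastin (Eln, -2.13, adjusted p = 9.1e-05), the mesenchymal ligand Wnt2 (-1.65, adjusted p = 0.00413), fibronectin (Fn1, -1.54, adjusted p = 0.000635) and the integrin subunit gene Itga5 (-0.99, adjusted p = 0.0471). Eln was the 1 of the 8 that was lower and passed between day 14 and day 42 (-2.56, adjusted p = 0.000175, with 1.45% of all genes). From day 7 to day 14, 1 of the 8 was lower and passed (5.3% of all genes), the growth factor gene Bmp4 (-0.65, adjusted p = 0.0117), named after its values were seen.

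Of 14 other mesenchymal transcription factors of the lung, 11 were lower and 0 higher at day 42 than at day 1 (13.4% of all genes were lower), with a median of -1.03. Among them were Twist1 (-2.75, adjusted p = 0.0153) and the hedgehog effectors Gli1 (-2.27, adjusted p = 7.6e-07), Gli3 (-2.24, adjusted p = 6.3e-07) and Gli2 (-1.85, adjusted p = 4.5e-06). In the step from day 7 to day 14, 3 of the 14 were lower and passed, Twist1 (-2.91), Gli3 (-1.53) and Gli1 (-1.29), and 0 were higher (5.3% of all genes were lower). Homeobox genes outside the clusters were mixed: of 18 tested, 2 were higher and 3 lower from day 1 to day 42, which is 27.8% beside 26.3% of all genes, with a median of -0.07. Six4 (1.55, adjusted p = 0.0239) was among the higher ones, and Meox2 (-2.07, adjusted p = 0.000164) and Prrx2 (-1.92, adjusted p = 0.000598) were lower. The step from day 7 to day 14 again held Meox2 (-1.42) and Prrx2 (-1.72), the only 2 of the 18 to pass there (11.3% of all genes did).

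Neighbours of the clusters and the antisense gene Hoxa11os gave 10 tested genes. Of these, 1 was higher and 1 lower at day 42 than at day 1 (26.3% of all genes passed in either direction). They were Skap1, an immune cell adaptor gene (2.46, adjusted p = 1.9e-05), and Cbx5, which encodes a heterochromatin protein (-0.59, adjusted p = 0.00274). The Evx genes at the 5′ ends of Hoxa and Hoxd were near background, with Evx1 above it on 0 arrays and Evx2 on 1.

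The 7 fibroblast markers were above background on every array, and their mean level had medians of 4.48, 4.71, 4.36, 4.67 and 4.27 from day 1 to day 42. Within that list Col1a1 (-1.20), Col1a2 (-1.95), Col3a1 (-1.15) and Tcf21 (-1.48) were lower at day 42 than at day 1, and Dcn (1.68) and Pdgfra (1.29) were higher. The smooth muscle list had medians of 4.71 at day 1, 4.17 at day 7, 3.39 at day 14 and 3.51 at day 42. Of the 4 leukocyte markers tested, all had higher means at day 14 than at day 7. In that step 2 passed (6% of all genes were higher and passed). From day 1 to day 42, 4 were higher and passed (12.9% of all genes). The list's median level was 0.54 at day 1, 0.64 at day 7, 1.94 at day 14 and 2.35 at day 42. Cycling-cell markers had medians of 1.46, 0.79, 0.47, -2.27 and -2.00 at the 5 ages. Day 14 replicate 5, the day 14 array with the highest levels of Hoxa2, Hoxa3 and all 7 Hoxb genes, was also the highest of its age for cycling-cell (-0.35) and smooth muscle (4.03) markers and the lowest for leukocyte markers (1.00). Without it, 7 Hox genes were lower at day 14 than at day 7 and passed (6.8% of all genes). The part of these cell types in the Hox results was not tested.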

How the data were processed

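Cy3-labelled total RNA of whole lung was measured on 24 one-colour Agilent arrays, 8 on each of 3 slides with every age on each slide. Per the file headers, the authors deposited scanner output of Feature Extraction 10.7.3.1, whose intensity values (gProcessedSignal) are background-corrected and not scaled between arrays, and whose flags, an other kind of value, mark each spot as well above background, saturated or non-uniform. The submitters' processing notes name version 10.7.1.1. A log2 table was also deposited, with normalization and direction of centring not given in the sources used here; its columns tracked the log2 processed signal with r of 0.9862 or more and had medians of 5.663 to 6.264, and it was used as an alternative.

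Values were averaged over the spots of a probe after controls and non-uniform spots had been dropped, and each array's 75th percentile of log2 signal was subtracted. Probes were named through RefSeq accessions (26056 of 55681 named; 19722 genes were left once 138 probes lacking a value in at least 1 hybridisation had been removed), and the brightest probe stood for a gene; 4 Hox genes had 2 probes. Genes well above background on at least 4 arrays (15895) were fitted with limma 3.58.1 in R 4.3.3, 1 mean per age over all 24 arrays, with Benjamini-Hochberg adjustment. The number of arrays limits the precision; no spot was saturated. Tested on simulated data of 15895 genes, from day 1 to day 42 the fit recovered 31% of 2-fold and 84% of 4-fold changes. The simulation had independent noise in each array and 100 changed genes at each fold. The real arrays include a set that shifts together, so these shares may not hold for them.

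The Hox genes, the lists of related genes and the markers were chosen with earlier results of these data known. Values in every array are given for Hox genes past the test in a step or from day 1 to day 42 and for the Hox5 paralogs, and those of Hoxb4 were added after they were seen; from each list at most 4 genes are named, those with the largest day 42 minus day 1 difference past the test, apart from Bmp4, named after its values were seen, and the Cdx and Evx genes, named only for where they were above background. Of 113 list genes, 103 were matched on the array; the antisense and noncoding genes of the clusters other than Hoxa11os were not matched by accession and are not analysed here. Some single-gene results are not reported here. Alternatives covered background correction, scaling, the deposited table, the filter, the probe rule, slide and replicate blocks, array weights, left-out arrays and fits of the compared ages alone. The scan files hold no mean signal, so normexp (offset 50) used the median signal. Replicate numbers come from the sample titles, which do not say that they mark a shared litter or day. Over 46 same-numbered pairs the correlation of deviations from the age means ranged from -0.849 to 0.879. All 4 pairs of days 1 and 42 were above 0.1 (0.377 to 0.879), which does not show that they are paired. The highest was replicate 4, where both arrays are among those that stood apart, and days 1 and 4 gave -0.849 to 0.596. The main fit, with 1 mean per age, holds no pairing for any ages. With the replicate block, run as an alternative, the same 9 Hox genes passed between days 1 and 42. The series title speaks of fetal lungs, while every sample is labelled postnatal. In 1 day 14 sample the source name gives another replicate number than the title, which was followed.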

Additional observations from a re-analysis of the deposited data

Results flagged for a closer look

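In 7 of 105 groups (21 Hox genes at 5 ages), 1 array lay far from the others of its age, where chance gives about 1 in 20. Hoxb5 on day 42 replicate 4, 1 of the arrays that stood apart, was at 2.298 against 0.589 to 0.851 on the other 3. Hoxc6 on day 4 replicate 1, also of that set, was at -3.767 against -5.770 to -5.196. Hoxa6 on day 14 replicate 3, the array with the most spots above background, was at -2.715 against -4.563 to -4.047. Hoxa7 on day 42 replicate 1 was at 0.7215 against 1.779 to 1.897. Hoxa9 on day 7 replicate 1 was at -4.981 against -4.527 to -4.483. Hoxb8 on day 7 replicate 3 was at -2.273 against -2.987 to -2.787. Hoxd9 on day 7 replicate 5 was at -6.755 against -6.342 to -6.208, where no array was above background.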

How the results depend on the processing

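Hox genes that passed kept their direction under every alternative run, but the alternatives reuse the same arrays and are no separate support. The main counts were 0, 0, 6 and 2 for the 4 steps, 9 from day 1 to day 42 and 10 over all ages. From day 1 to day 4, 1 Hox gene passed with quantile normalization (0.201% of all genes), the authors' table (0.623%) and array weights (3.08%). The same count came without the 5 arrays apart and day 14 replicate 5 (1.6%). From day 4 to day 7, 3 passed with array weights (32.4% of all genes). From day 7 to day 14 the count was 10 in the authors' table (22.4% of all genes) and in a fit of these ages alone. It was 11 (10 lower and 1 higher) with array weights (60.3%) and without the 5 arrays (38%). Without 6 it was 12 (11 lower and 1 higher), where 44% of all genes passed. From day 14 to day 42 it was 0 with median scaling (3.11% of all genes) and in a fit of these ages alone. It was 1 without a filter (2.43%), with the mean of probes (3.18%), with the slide as a block (3.35%) and with the replicate block (3.07%). It was 4 without the 5 arrays (13.2%) and 6 (4 lower, with Hoxc4 and Hoxc6 higher) in the authors' table (9.6%). With array weights it was 9 (7 lower and the same 2 higher), where 30.8% of all genes passed. From day 1 to day 42, 11 lower and 1 higher passed with array weights (51.9% of all genes) and 10 lower and 1 higher without 6 arrays (47.9%). Over all ages it was 17 with array weights, which raised the share of all genes that passed in every comparison of 2 ages. For counts over all ages under an alternative, and for fits of the compared ages alone, the share of all genes was not counted. The cause of these shifts was not tested. Leaving out single arrays gave 0 in both first-week steps and 5 to 8 from day 7 to day 14 (8.23% to 14.5% of all genes). It gave 1 to 3 from day 14 to day 42 (2.13% to 5.3%), 7 to 11 from day 1 to day 42 (21.3% to 36.3%) and 10 to 13 over all ages. The count of 1 came without day 14 replicate 1, 2 or 5 or day 42 replicate 1, 2 or 3. The replicate block left the counts at 0, 0, 6, 1 and 9. Only for days 1 and 42 were all same-numbered pairs correlated above 0.1, which does not show that they are paired. Hoxb5 and Hoxb6 lost their call from day 1 to day 42 without day 42 replicate 1 (adjusted p = 0.0621 and 0.0665) or 3 (0.0549 and 0.0504), Hoxb6 also without replicate 2 (0.0509), and with Hoxa5 in a fit of these ages alone (0.14, 0.112 and 0.132). Of 647 values recomputed for single genes, 28 fell short of the threshold with the same sign. Probes near background, among them those of Hoxc5, Hoxc6, Hoxd4 and Hoxd9, limit what can be said of the Hoxc and Hoxd clusters.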
